A study of Mus musculus with 12 samples.

Results

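Cell cycle entry genes were described in spontaneous liver tumours of mice: the 3 D-type cyclins (Ccnd1, Ccnd2, Ccnd3), their partner kinases Cdk4 and Cdk6, and 5 inhibitors of these kinases (Cdkn1a, Cdkn1b, Cdkn2a, Cdkn2b, Cdkn2c). Every probe set that the platform annotation assigns to 1 of these 10 genes was taken, which gave 26 of 45037 probe sets without the array controls. All 12 animals were untreated B6C3F1 mice, a hybrid of the C57BL/6 and C3H strains, held to an age of 2 years in a bioassay of the National Toxicology Program. One group was 6 normal livers, which served as controls, and the other was 6 hepatocellular carcinomas (HCC) that arose without treatment. The labels give neither sex nor batch, and they do not say how much non-tumour tissue each carcinoma sample held. Each animal was measured on 1 single-colour array, so the precision of every value is set by how few arrays there are. The hepatocyte genes Alb, Ttr, Apoa1 and Hnf4a were measured in both groups at means from 13.28 to 16.06 on the log2 scale, and none of the 4 passed the test between HCC and normal liver. Apoa1 could not have passed, since it held the top rank, which quantile normalization fixes, on all 6 normal arrays and 5 of the 6 HCC arrays. The mean level of Kdm5d, Uty and Eif2s3y, all Y-linked, was from 4.17 to 4.85 in normal 1, normal 3, HCC 1 and HCC 4 and from 8.96 to 9.78 in the other 8 arrays.

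A D-type cyclin binds Cdk4 or Cdk6, and the active pair phosphorylates the retinoblastoma protein Rb, which then releases E2F factors to switch on genes of DNA synthesis. Members of the Ink4 family (Cdkn2a, Cdkn2b, Cdkn2c) bind Cdk4 and Cdk6 and keep the cyclin away, whereas members of the Cip/Kip family (Cdkn1a, Cdkn1b) bind assembled cyclin and kinase pairs. In the liver, Ccnd1 is known for its rise when resting hepatocytes re-enter the cell cycle after loss of tissue. Cdkn2a and Cdkn2b lie side by side, and the former has alternative first exons that give an Ink4 inhibitor and the unrelated Arf protein, which acts through p53.

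The Ink4 genes include the members that rose most, and regions before annotated starts of these genes are shown, with that of Cdk6. RefSeq's promoter table (GRCm38.p6) gave windows for 8 of the 10 genes, and each sequence is the 250 bases before an annotated start, 5′ to 3′ on the strand of the gene. Capitals mark a match to 1 of 5 motifs searched on both strands: the E2F motifs TTTCCCGC, TTTGGCGC and TTTCGCGC, the E-box CACGTG, and the AP-1 motif TGACTCA. None of the 5 is contained in another.
Cdkn2a upstream start, chr4:89294620-89294869, minus strand: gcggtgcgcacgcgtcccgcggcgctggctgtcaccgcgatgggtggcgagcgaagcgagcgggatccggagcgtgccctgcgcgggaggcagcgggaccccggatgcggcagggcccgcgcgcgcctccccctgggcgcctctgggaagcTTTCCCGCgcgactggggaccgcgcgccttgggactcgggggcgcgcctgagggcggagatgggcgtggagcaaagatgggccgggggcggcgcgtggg
Cdkn2a downstream start, chr4:89282193-89282442, minus strand: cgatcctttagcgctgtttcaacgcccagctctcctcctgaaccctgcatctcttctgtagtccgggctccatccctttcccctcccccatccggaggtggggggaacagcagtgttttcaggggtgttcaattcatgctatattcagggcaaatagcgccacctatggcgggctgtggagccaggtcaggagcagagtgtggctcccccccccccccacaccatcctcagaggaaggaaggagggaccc
Cdkn2b, chr4:89311033-89311282, minus strand: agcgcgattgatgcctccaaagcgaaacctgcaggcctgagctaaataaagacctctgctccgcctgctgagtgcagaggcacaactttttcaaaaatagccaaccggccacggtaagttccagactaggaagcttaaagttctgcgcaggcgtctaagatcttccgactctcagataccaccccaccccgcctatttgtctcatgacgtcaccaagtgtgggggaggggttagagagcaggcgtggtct
Cdkn2c upstream start, chr4:109666757-109667006, minus strand: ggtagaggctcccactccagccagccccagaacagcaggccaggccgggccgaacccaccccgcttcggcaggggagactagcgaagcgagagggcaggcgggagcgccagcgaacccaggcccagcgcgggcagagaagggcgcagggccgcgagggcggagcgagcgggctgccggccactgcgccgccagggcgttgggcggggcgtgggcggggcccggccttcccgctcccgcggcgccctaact
Cdk6, chr5:3343643-3343892, plus strand: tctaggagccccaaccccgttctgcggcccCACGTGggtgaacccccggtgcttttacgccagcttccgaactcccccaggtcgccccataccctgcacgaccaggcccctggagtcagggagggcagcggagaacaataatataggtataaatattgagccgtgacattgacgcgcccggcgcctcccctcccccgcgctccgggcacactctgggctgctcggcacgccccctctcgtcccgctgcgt
The upstream window of Cdkn2a held TTTCCCGC 99 bases before the start, a motif found in 0.895% of 32851 windows of this length, and 1.53% held any of the E2F motifs. The Cdk6 window held 1 CACGTG and that of Cdk4, which is not printed, held 4; 6.02% of all windows contain this motif. The windows of Cdkn2b, of the downstream start of Cdkn2a and of both starts of Cdkn2c held none of the 5 motifs. A match is a description of letters and was not tested as a binding site. The single Cdkn2a probe set carries the suffix that Affymetrix uses for probes shared by alternative transcripts, so transcripts from the 2 starts of Cdkn2a could not be told apart.

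The comparison of HCC with normal liver asked whether these genes differ in the tumours, and every difference that passed was a rise. Of the 26 probe sets, 9 were higher in HCC and none was lower at a Benjamini-Hochberg adjusted p under 0.05 (limma, adjusted over all 45037 probe sets). By the same rule 8.33% of all probe sets passed, 4.38% higher and 3.95% lower. The 9 belonged to 6 genes: all 3 probe sets of Ccnd1, 2 of the 3 of Cdk6, 1 of the 3 of Ccnd3, and the only probe set of each of Cdkn2a, Cdkn2b and Cdkn2c. No probe set of Ccnd2, Cdk4, Cdkn1a or Cdkn1b passed. The brightest probe sets were 1417420_at for Ccnd1, 1416122_at for Ccnd2, 1415907_at for Ccnd3, 1422441_x_at for Cdk4 and 1435338_at for Cdk6. For the inhibitors they were 1424638_at for Cdkn1a, 1434045_at for Cdkn1b, 1450140_a_at for Cdkn2a, 1449152_at for Cdkn2b and 1416868_at for Cdkn2c. Taking the brightest probe set of each gene, 5 of 10 were higher, against 5.27% of the brightest probe sets of 18193 genes. The median difference was 0.89 over these 10 and 0.49 over the 26, beside -0.02 over all probe sets. In 4 of the 26 every HCC lay above every normal liver, as in 3.41% of all probe sets, and 6.49% had no overlap in either direction. The labels do not say how the tissue of each array was sampled, and in bulk tissue more cells that express a gene and more RNA per cell cannot be told apart. Among markers of other liver cells none rose; Clec4f of Kupffer cells fell by 2.36, Stab2 of sinusoidal endothelium by 1.11 and Lrat of stellate cells by 2.52 on the log2 scale (limma adjusted p = 0.0225, 0.0259 and 0.02), each the only one of its list of 6, 6 and 7 to pass. Other markers of the same lists had positive differences that did not pass, such as Cd68 at 1.34, Pecam1 at 1.38 and Col1a1 at 3.27 (adjusted p = 0.135, 0.0997 and 0.0515). In all 2 of the 6, 3 of the 6 and 4 of the 7 were positive. The part of these cells in the results was not tested. Levels below are log2(intensity + 16) after quantile normalization, a scale with a floor of 4 that understates the change of dim probe sets.

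**Figure D1:**
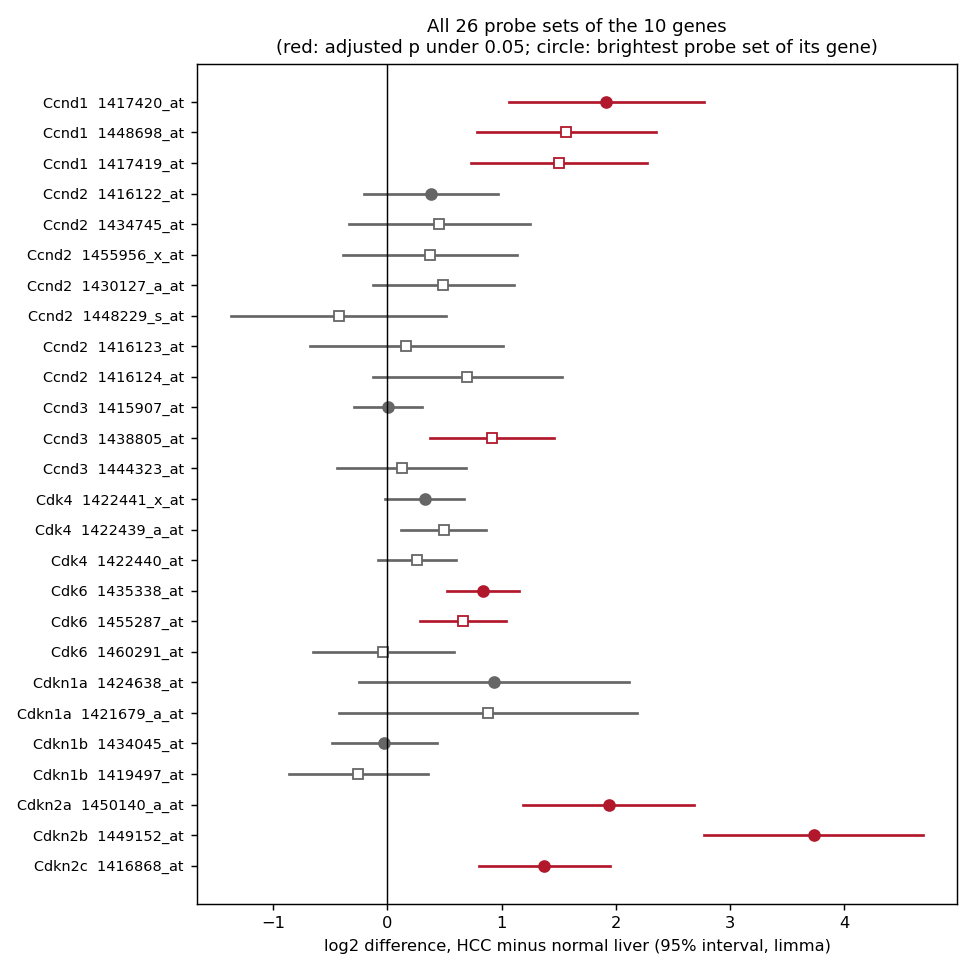
Difference between 6 HCC and 6 normal livers for all 26 probe sets on the log2 scale, with the 95% interval from limma. The 9 probe sets drawn in red passed the test and all lie to the right of 0, with Cdkn2b farthest at 3.73.

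Cdkn2b, which encodes the Ink4 inhibitor p15Ink4b, rose most. Its levels ran from 5.01 in normal 5 through a median of 6.51 to 7.01 in normal 3, and in HCC from 8.35 in HCC 4 through a median of 10.11 to 10.50 in HCC 3. Every tumour was above every normal liver, and 5 of the 6 tumours lay close together, from 9.99 to 10.50. Means were 6.19 ± 0.89 over the 6 normal livers and 9.92 ± 0.80 over the 6 tumours (SD), a rise of 3.73 ± 0.44 or 13.3-fold (SE, limma adjusted p = 0.000379). In deposited intensity the normal livers averaged 66.4 ± 41.7 and the tumours 1075 ± 403 (SD, n = 6 and 6). HCC 4 stood apart from the other tumours with 4.47-fold the mean normal level, against 13.9- to 19.8-fold in the other 5. Leaving out any single array gave differences from 3.50 to 4.04.

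Cdkn2a, the neighbour that encodes p16Ink4a and Arf, was dim in normal liver. Its levels were between 4.72 and 6.38 there with a median of 5.20, and the intensity of normal 1 and of normal 5 was under 16. In the tumours levels ran from 6.54 in HCC 4 through a median of 7.07 to 8.34 in HCC 3, so the groups did not overlap. The rise was 1.94 ± 0.35 (SE, limma adjusted p = 0.00477), and the size of the change is limited by the floor on the normal side. The deposited intensity averaged 26.1 ± 18.1 over normal livers and 155 ± 91.5 over tumours (SD, n = 6 and 6). HCC 3 had the highest and HCC 4 the lowest level of the tumours for both Cdkn2a and Cdkn2b.

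Cdkn2c, which encodes p18Ink4c, lies elsewhere on the same chromosome. Normal livers ran from 7.97 through a median of 8.18 to 9.26, and tumours from 9.15 in HCC 3 through a median of 9.79 to 10.30 in HCC 5. Only HCC 3 lay within the normal range, whose top was set by normal 1. The rise was 1.38 ± 0.26 (SE, limma adjusted p = 0.00734), or 2.60-fold. The order of the tumours was unlike that of the other Ink4 genes, since HCC 3 was lowest for Cdkn2c and highest for Cdkn2a and Cdkn2b. Within the 4 tumours and 4 normal livers that had Y-linked signal all 3 Ink4 genes passed too, with differences of 4.26 for Cdkn2b, 2.13 for Cdkn2a and 1.51 for Cdkn2c (limma adjusted p of 0.0033, 0.02 and 0.0228), where 3.29% of all probe sets passed and 1.81% were higher. On the 4 arrays without that signal the differences were 2.68, 1.56 and 1.10.

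**Figure D2:**
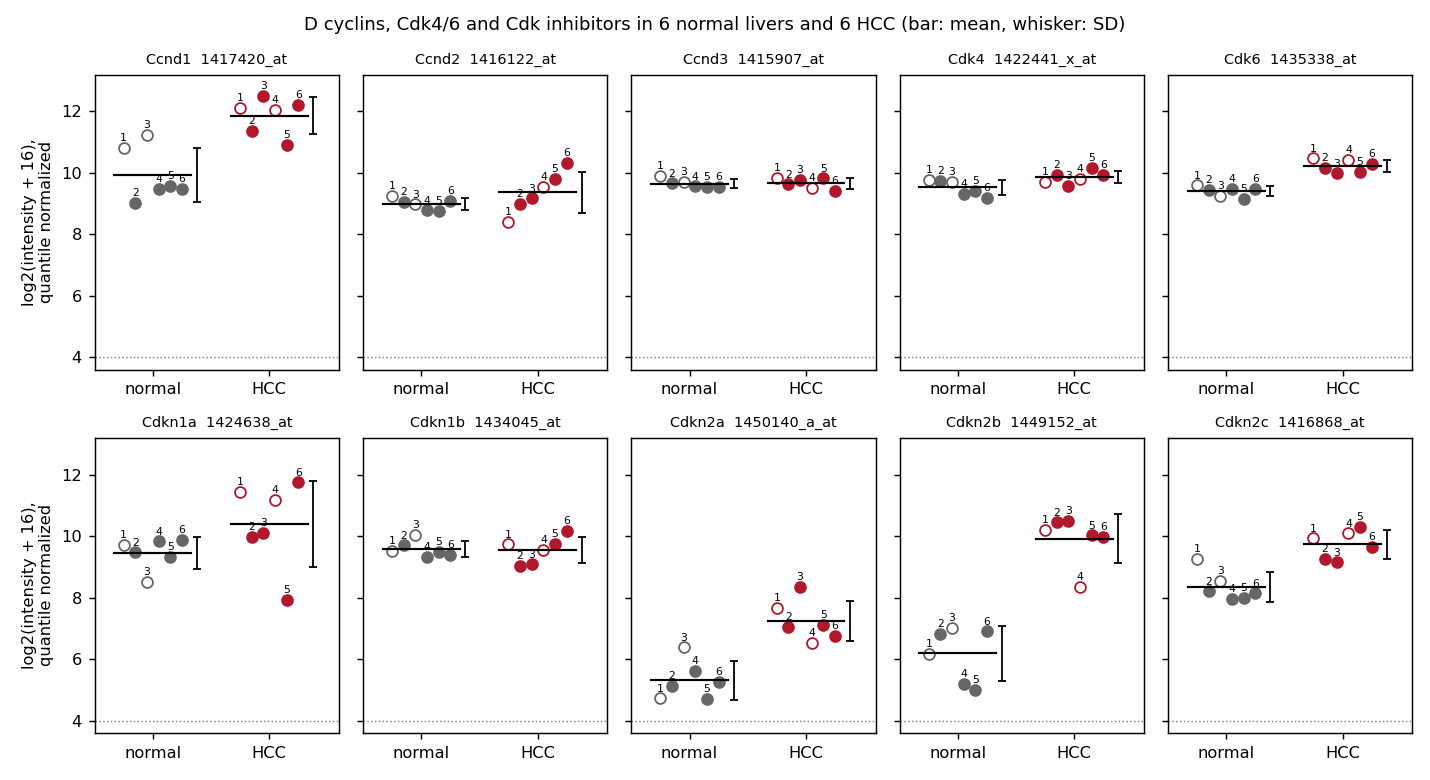
Level of the brightest probe set of each gene in every animal, as quantile-normalized log2(intensity + 16), with the mean as a bar and the SD as a whisker; numbers are animals and open circles are arrays without Y-linked signal. All 6 HCC lie above all 6 normal livers for Cdk6, Cdkn2a and Cdkn2b, while HCC 5 lies below all normal livers for Cdkn1a; the dotted line is the floor of 4.

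Genes beside the Ink4 loci were described from a list of 8, of which 1 rose and 1 fell, with a median of -0.21; 5.27% and 5.49% of the brightest probe sets of all genes were higher and lower. In RefSeq's order Mtap, an enzyme of methionine salvage, and Dmrta1 flank Cdkn2a and Cdkn2b, and Rnf11 and Faf1 flank Cdkn2c. Mtap was at 10.62 in HCC and 10.64 in normal liver (difference of -0.02 ± 0.25, limma adjusted p = 0.975), and its sign turned with the deposited scaling. Dmrta1 fell by 1.98 ± 0.44 on the log2 scale (limma adjusted p = 0.016), to levels from 4.62 to 7.76 in the tumours against 7.32 to 8.02 in normal liver. Among the arrays with Y-linked signal Dmrta1 fell short of the test (-1.83, adjusted p = 0.167), while Mllt3 passed at 1.82 (limma adjusted p = 0.0284) and Mtap was at 0.29. Mllt3, a transcription elongation factor on the same chromosome, rose by 1.42 ± 0.30 (limma adjusted p = 0.0116). Among the tumours HCC 4 had the lowest Mtap level in each of its 4 probe sets, at 9.54 in the brightest against 10.52 to 10.84 in normal liver. HCC 6 was also below all normal livers in these 4 probe sets, at 10.24 in the brightest. HCC 4 was the lowest tumour for Klhl9, Focad and Mllt3 of this list too, at 10.23, 7.86 and 7.52. It was not the lowest for Dmrta1, Elavl2, Faf1 or Rnf11. For Klhl9 and Focad HCC 6 was again below all normal livers, at 10.98 and 7.895. For Klhl9 so were HCC 1, HCC 2 and HCC 3. This look at single tumours was chosen after their values were seen.

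Of 14 listed regulators of the Ink4 locus and of Cdkn1a, 13 were measured by a probe set of their own. Trp53, which encodes p53, had no such probe set, so its level was not described. Of the 13, 3 rose and none fell, with a median of 0.23. Over all genes 5.27% of the brightest probe sets rose and 5.49% fell. Bmi1, a Polycomb protein known to repress Cdkn2a, rose by 0.66 ± 0.13 (limma adjusted p = 0.00851) and Ets2, a transcription factor known to activate it, by 1.44 ± 0.28 (limma adjusted p = 0.00854). In both, every tumour was above every normal liver. The second probe set of Bmi1 passed as well, at 0.54 (limma adjusted p = 0.0294). Of the other probe sets of Ets2, one passed at 2.39 and one was at -0.81 without passing. Myc rose by 1.22 ± 0.34 (limma adjusted p = 0.0432), a call that ended for 10 of the 12 arrays when each was left out (adjusted p as high as 0.0912). Ezh2, the Polycomb methyltransferase, was at 0.46 ± 0.19 (adjusted p = 0.157) and passed with the deposited scaling (0.62, adjusted p = 0.0362). Mdm2, the ubiquitin ligase of p53, was at 0.39 ± 0.18 (adjusted p = 0.208). With a replicate block 1 of the 13 passed, and among the arrays with Y-linked signal 0 of 13 (limma), where 1.81% of all probe sets were higher.

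Ccnd1, the D cyclin of the growth factor response, rose in all 3 of its probe sets. In the brightest, normal livers ran from 9.03 in normal 2 through a median of 9.54 to 11.25 in normal 3, and tumours from 10.91 in HCC 5 through a median of 12.08 to 12.51 in HCC 3. In all, 5 tumours were above every normal liver, and HCC 5 lay within the normal range. Means were 9.94 ± 0.87 over normal livers and 11.86 ± 0.60 over tumours (SD, n = 6 and 6), a rise of 1.92 ± 0.39 or 3.78-fold (SE, limma adjusted p = 0.0102). The other probe sets were at 1.57 ± 0.36 and 1.51 ± 0.36 (adjusted p = 0.0193 and 0.0211), and the last lost its call without normal 5 (adjusted p = 0.0506). In all 3 probe sets HCC 3 was the highest tumour and HCC 5 the lowest, and in both dimmer ones HCC 2 also lay within the normal range.

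Among normal livers the highest Ccnd1 levels were in the pair without Y-linked signal. The pair without that signal, normal 1 and normal 3, had levels of 10.80 and 11.25, while the other 4 normal livers lay between 9.03 and 9.58. The means were 11.02 and 9.40, a difference of 1.63 that did not pass among the 6 normal livers (limma adjusted p = 0.155). Among tumours the same comparison gave 0.33. The rise in HCC was 2.35 among the 4 and 4 arrays with Y-linked signal, where every tumour was above every normal liver (limma adjusted p = 0.0129), and 1.05 among the 2 and 2 without it. These 2 rises did not differ past the test (limma interaction of 1.30, unadjusted p = 0.0432, adjusted p = 0.634), a test passed by 0.0444% of all probe sets. With the Y-linked level as a covariate Ccnd1 rose by 1.93 (limma adjusted p = 0.00248). The pattern among normal livers was not particular to Ccnd1. Normal 1 and normal 3 were also the 2 highest normal livers for Cdkn2c and Rbl1. Their means were 0.83 and 0.76 above those of the other normal livers (limma adjusted p = 0.529 and 0.49). For the brightest Cdkn1a probe set the same difference was -0.51 (limma adjusted p = 0.834).

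**Figure D3:**
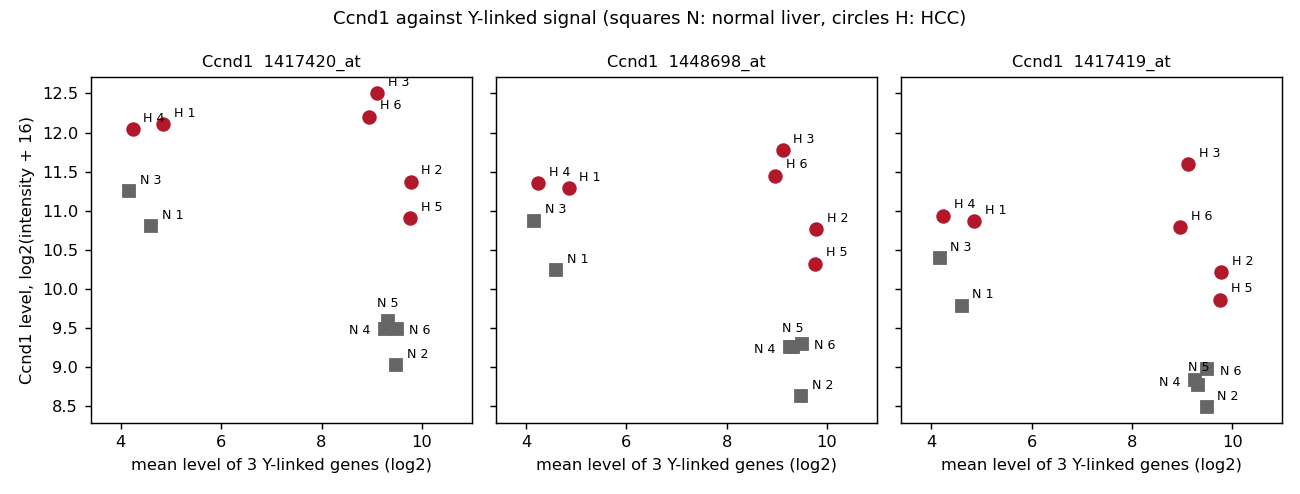
Level of the 3 Ccnd1 probe sets, log2(intensity + 16), against the mean log2 level of 3 Y-linked genes in each of 12 arrays. Normal 1 and normal 3, at Y-linked means of 4.60 and 4.17, lie above the other 4 normal livers in every panel, and HCC 5 is the lowest tumour in every panel.

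Ccnd1 is often listed as a target of beta-catenin, so its level was set beside that of Axin2, the feedback inhibitor of that pathway. HCC 1, HCC 4 and HCC 6 had Axin2 at 11.76, 10.34 and 9.14 and Ccnd1 at 12.10, 12.05 and 12.20. HCC 2, HCC 3 and HCC 5 had Axin2 at 6.24, 5.06 and 6.36, below all normal livers, and Ccnd1 at 11.37, 12.51 and 10.91. HCC 3 had the lowest Axin2 and the highest Ccnd1 level, while HCC 2 and HCC 5, also low in Axin2, had the lowest Ccnd1 levels. A link between the levels of Axin2 and Ccnd1 was not tested.

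Ccnd2, the D cyclin best known from blood cells, ovary and pancreatic islets, had 7 probe sets, and none passed. In the brightest, normal livers ran from 8.77 through a median of 9.01 to 9.24 and tumours from 8.41 in HCC 1 through a median of 9.36 to 10.32 in HCC 6. The difference was 0.39 ± 0.27 (SE, limma adjusted p = 0.439, 95% interval from -0.20 to 0.97). HCC 4, HCC 5 and HCC 6 lay above all normal livers and HCC 1 below them. HCC 6 was the highest tumour in 6 of the 7 probe sets, up to 2.05 above the normal mean. Only 1448229_s_at among the 7 was negative, at -0.43, with HCC 2 at 5.40; its suffix marks probes that may match other transcripts, as does that of 1455956_x_at, which was at 0.37. On arrays with Y-linked signal the brightest was at 0.64, and on those without it at -0.13. The SD among tumours was 0.67 against 0.18 among normal livers, and the test of spread did not pass (limma on absolute deviations, unadjusted p = 0.0243, adjusted p = 0.531). HCC 6 also had the highest mean of 7 stellate and fibroblast markers, 2.50 above normal, where the other tumours ran from -1.42 to 0.37 and normal livers from -0.49 to 0.46. Of these 7, none rose, and Lrat, which handles vitamin A in stellate cells, fell; no marker was under an intensity of 16 on all 12 arrays. HCC 6 had the highest mean of 5 T cell markers too, at 1.06, with normal livers from -0.44 to 0.32 and other tumours up to 0.61. None of these 5 passed the test, and again none was under 16 on all arrays. For the endothelial, Kupffer and macrophage, cholangiocyte and B cell lists another tumour had the highest mean. HCC 6 was at 0.50, 0.03, 0.61 and -0.30 there. The part of these cells in the level of Ccnd2 was not tested.

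Ccnd3, the third D cyclin, gave different answers by probe set. The brightest averaged 9.66 ± 0.18 over tumours and 9.65 ± 0.14 over normal livers (SD, n = 6 and 6), with a 95% interval of the difference from -0.29 to 0.31 (limma adjusted p = 0.982). A dimmer one rose by 0.92 ± 0.25 (limma adjusted p = 0.0412), from a median of 6.43 to a median of 7.56, with HCC 1 and HCC 2 within the normal range. Leaving out 1 array ended that call for 9 of the 12 arrays (adjusted p as high as 0.0865), as did a pseudocount of 1 (adjusted p = 0.0533), a replicate block (adjusted p = 0.0975) and the restriction to arrays with Y-linked signal (adjusted p = 0.211). The remaining probe set was near the floor, at 5.40 in HCC and 5.27 in normal liver.

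Cdk6, one of the partner kinases, rose in 2 of its 3 probe sets with little spread. In the brightest, normal livers ran from 9.15 through a median of 9.46 to 9.59 and tumours from 9.98 in HCC 3 through a median of 10.23 to 10.47 in HCC 1. All tumours were above all normal livers. The rise was 0.83 ± 0.15 (SE, limma adjusted p = 0.00428), or 1.78-fold. The next probe set rose by 0.66 ± 0.17 (limma adjusted p = 0.0339), also without overlap, a call that ended for 7 of the 12 arrays when each was left out (adjusted p as high as 0.0767) and with a replicate block (adjusted p = 0.0747). The dimmest was at -0.03 ± 0.29 (adjusted p = 0.963), with levels from 6.06 to 7.56 in HCC and 6.17 to 7.34 in normal liver. The mean of the 3 probe sets was at 0.49 and did not pass (adjusted p = 0.0659), and among the arrays with Y-linked signal the brightest was at 0.74 and the next at 0.54 (adjusted p = 0.0673 and 0.206).

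Cdk4, the other kinase, had positive differences that did not pass in any of its probe sets. Its probe sets were at 0.33 ± 0.16, 0.50 ± 0.17 and 0.26 ± 0.16 (SE, limma adjusted p = 0.24, 0.0985 and 0.357). In the brightest, normal livers ran from 9.19 through a median of 9.56 to 9.77 and tumours from 9.58 through a median of 9.87 to 10.15, with 4 tumours above all normal livers. The 95% interval of its difference was from -0.02 to 0.67, and the difference was 0.48 with Y-linked signal and 0.02 without it. The probe set at 0.50 passed with the filter on dim probe sets (adjusted p = 0.0366) and with a trended and robust variance (adjusted p = 0.0497).

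Cdkn1a, which encodes the p53-induced inhibitor p21, went in opposite directions in different tumours. In the brightest probe set, normal livers ran from 8.51 in normal 3 through a median of 9.60 to 9.88 in normal 6. HCC 1 to HCC 6 stood, in that order, at 11.45, 9.97, 10.10, 11.17, 7.92 and 11.75. In all, 5 tumours lay above every normal liver, by 1.43- to 4.90-fold over the normal mean, and HCC 5 was below every normal liver, at 2.91-fold under that mean. The dimmer probe set gave the same positions, with HCC 5 at 5.02, just under the lowest normal liver at 5.04, and the other tumours from 7.53 to 8.31, above the highest at 7.40. Deposited intensities of that probe set were 17.3 in HCC 5 and 17.6 in normal 5, near the floor. It therefore does not separate HCC 5 from the lowest normal liver. Among the arrays with Y-linked signal the difference was 0.31 and among those without it 2.19, and in the dimmer probe set 0.32 and 2.01. These differences did not differ past the test (limma interaction, adjusted p = 0.761 and 0.832). As a group the tumours did not pass, at 0.94 ± 0.55 and 0.88 ± 0.60 (SE, limma adjusted p = 0.339 and 0.421, 95% intervals from -0.25 to 2.12 and from -0.42 to 2.19). Without HCC 5, left out because of its low value, the brightest probe set was at 1.43 and passed (limma adjusted p = 0.035), while the dimmer one was at 1.38 and did not (adjusted p = 0.0953). The SD was 1.41 among tumours and 0.51 among normal livers, and the test of spread did not pass (limma on absolute deviations, unadjusted p = 0.0567, adjusted p = 0.672).

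Cdkn1b, which encodes p27Kip1, did not pass in either probe set. In the brightest, normal livers ran from 9.32 through a median of 9.50 to 10.05 and tumours from 9.03 in HCC 2 through a median of 9.65 to 10.16 in HCC 6. The difference was -0.03 ± 0.21 (SE, limma adjusted p = 0.964, 95% interval from -0.49 to 0.44), and its sign was positive under median centring and under the deposited scaling. HCC 2 and HCC 3 were below all normal livers and HCC 6 above them. The dimmer probe set was at -0.25 ± 0.28 (adjusted p = 0.645).

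**Figure D4:**
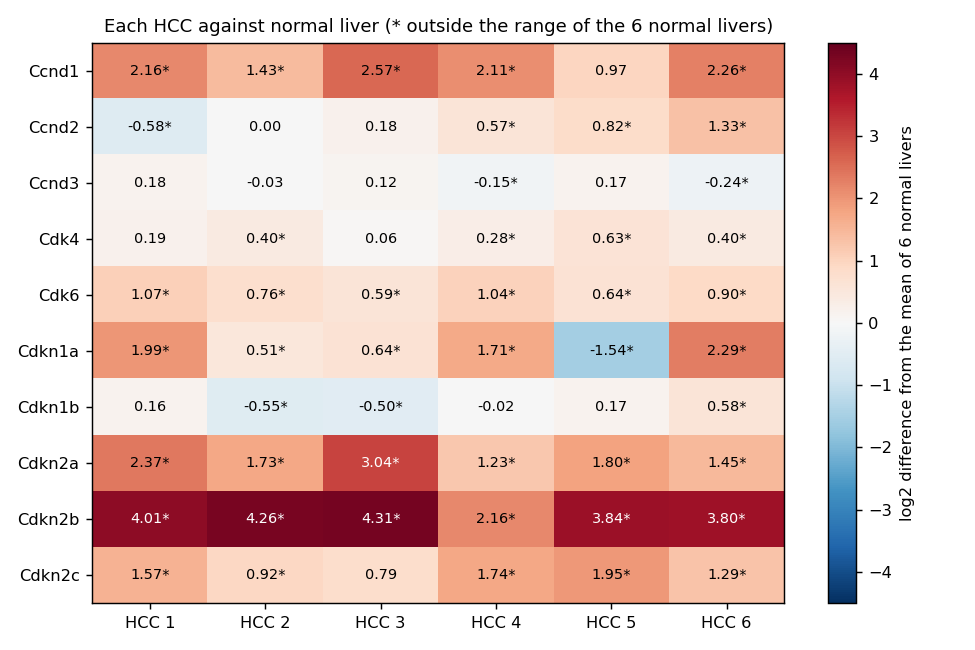
Level of each gene's brightest probe set in each HCC minus the mean of the 6 normal livers, on the log2 scale; an asterisk marks a tumour outside the range of the normal livers. Cdkn2b is from 2.16 to 4.31 above normal in all 6 tumours. HCC 5 combines the lowest Cdkn1a (-1.54) and Ccnd1 (0.97) with the highest Cdkn2c (1.95). HCC 3 combines the highest Ccnd1 (2.57), Cdkn2a (3.04) and Cdkn2b (4.31) with the lowest Cdkn2c (0.79).

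Tumour by tumour, HCC 3, HCC 5 and HCC 6 each stood at an end of the tumour range in several of these genes. In the brightest probe sets HCC 3 had the highest Ccnd1, Cdkn2a and Cdkn2b and the lowest Cdk4, Cdk6 and Cdkn2c levels. HCC 6 had the highest Ccnd2, Cdkn1a and Cdkn1b and the lowest Ccnd3 levels. HCC 5 had the lowest Ccnd1 and Cdkn1a and the highest Cdkn2c and Cdk4 levels of the 6 tumours. Its Cdkn2a and Cdkn2b lay between those of other tumours. For Cdk4 this held in the brightest probe set alone: in another, HCC 5 was the lowest tumour at 9.35. It also had the lowest mean of 13 proliferation markers, at 0.70 above normal, where the other tumours ran from 1.49 to 2.05 and normal livers from -0.30 to 0.29. Mki67, a marker of cycling cells, was at 7.58 in HCC 5 and from 8.71 to 9.63 in other tumours, and averaged 6.63 ± 0.43 over normal livers (SD, n = 6). Of these 13 markers 11 rose and none fell, against 5.27% of the brightest probe sets of all genes that rose, with a median of 1.72; Mki67 rose by 2.41 ± 0.34 and Top2a, the topoisomerase of S phase and mitosis, by 1.72 ± 0.28 (SE, limma adjusted p = 0.00129 and 0.00298). Other probe sets of Top2a were at 0.05 and -0.24 without passing, and their mean with the brightest was at 0.51 (adjusted p = 0.0893). On arrays with Y-linked signal Mki67 passed at 2.26 and Top2a, at 1.55, did not (limma adjusted p = 0.0298 and 0.0593). These tumours were compared as single values, with no test of one tumour against the rest.

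The rest of the G1 machinery was described from a list of 25 genes, all measured, and 1 rose while none fell, where 5.27% of the brightest probe sets of all genes rose and 5.49% fell. The median difference was 0.24. Rbl1, the Rb relative p107 that is itself an E2F target, rose by 1.14 ± 0.21 (SE, limma adjusted p = 0.0053), with means of 7.51 ± 0.43 over normal livers and 8.66 ± 0.23 over tumours (SD, n = 6 and 6) and no overlap. Its 3 dimmer probe sets were between -0.18 and 0.25, and the mean of all 4 was at 0.26 (adjusted p = 0.456). Rbl1 was at 1.39 on arrays with Y-linked signal (limma adjusted p = 0.0154) and at 0.65 on those without it. Rb1, the retinoblastoma gene, was at -0.02 ± 0.18 and Cdk2, the kinase that follows Cdk4 and Cdk6, at 0.00 ± 0.18 (adjusted p = 0.971 and 0.997); both signs depended on the processing, Rb1 turning with the deposited scaling and Cdk2 with array weights. The Cdk2 partner Ccne1 was at 1.03 ± 0.42 (adjusted p = 0.157), and its dimmer probe set passed at 1.90 (adjusted p = 0.00219). Ccne2 was at 0.27 ± 0.27 (adjusted p = 0.606). E2f1, the activating E2F factor, was at 1.13 ± 0.41 (adjusted p = 0.114), with other probe sets at 0.10 and -0.46, and it passed without normal 6 (adjusted p = 0.038). Skp2, the ligase subunit that marks p27Kip1 for degradation, was at 0.27 ± 0.15 (adjusted p = 0.312). The remaining inhibitors of the 2 families, Cdkn1c of Cip/Kip and Cdkn2d of Ink4, were at 0.85 ± 0.42 and -0.04 ± 0.14 (adjusted p = 0.248 and 0.904), the latter with a sign that turned with the deposited scaling. The list counted 3 rises with a pseudocount of 64, with the deposited scaling, with a filter on dim probe sets, with a trended and robust variance, or without HCC 5. The share of all probe sets that passed was not counted in these runs. A change in these genes therefore cannot be told apart from a change over the whole array.

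**Figure D5:**
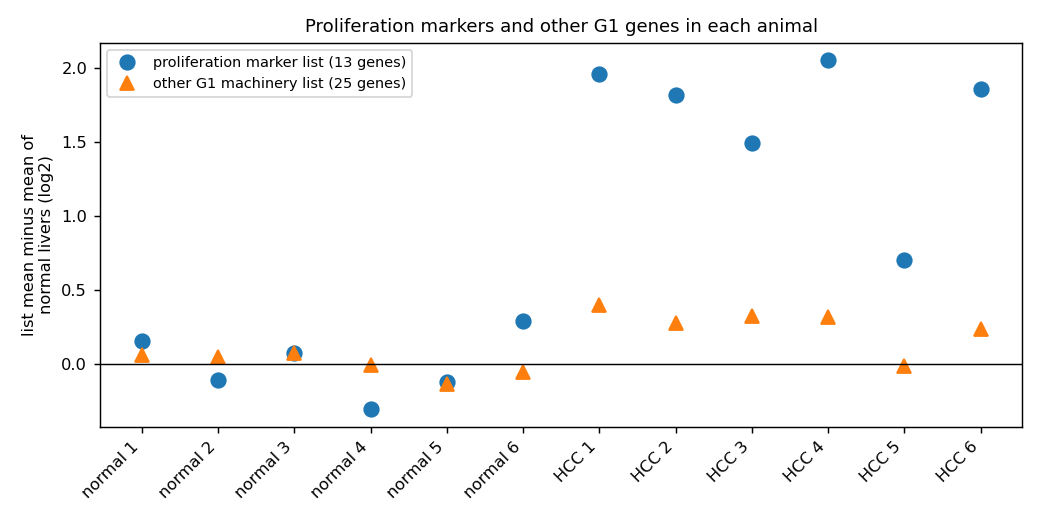
Mean of 13 proliferation markers (circles) and of 25 other G1 genes (triangles) in each animal, minus the mean of the 6 normal livers, on the log2 scale. Proliferation markers are from 0.70 in HCC 5 to 2.05 in HCC 4, and the other G1 genes from -0.01 in HCC 5 to 0.40 in HCC 1.

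Of the 26 probe sets, 0 passed the test of spread between tumours and normal livers (limma on absolute deviations from the group median, adjusted over all probe sets), beside 0.235% of all probe sets. At an unadjusted p under 0.05 it was 2 of the 26, of Ccnd2 and Ccnd3, beside 3446 of all 45037 probe sets, about the same share. The Ccnd3 probe set among them, 1444323_at, was the one near the floor. Tested on simulated data this fit found 0 of 200 probe sets whose SD was 4 times larger in HCC, so a missed threshold says little about spread. In the data 106 probe sets passed, and the simulated count may understate what the test finds here. Tbx3, of the regulator list, passed with an SD 5.06 times larger in HCC. Axin2, at 6.15 times, did not (limma on absolute deviations, adjusted p = 0.0292 and 0.0877). The SD was larger in HCC for 15 of the 26, and for 58.5% of all probe sets.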

How the data were processed

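The deposited intensity values were linear signals per probe set of single-colour Affymetrix arrays, which the authors had scaled to a 2% trimmed mean of 500.0 on each array, as the values show. The sources used here do not give the summary method, and biotin labelling was by one-cycle synthesis per the labels. Intensities were turned into log2(intensity + 16) and quantile normalized, 64 control probe sets were left out, and 45037 probe sets were fitted with limma 3.58.1 (R 4.3.3; lmFit, eBayes, two-sided, Benjamini-Hochberg, threshold 0.05). Platform annotation gave 1 gene to 34945 probe sets, several to 932 and none to 9160; the brightest by mean over 12 arrays stood for a gene. Named were the 10 members, list genes past the test and the fixed ones. The fixed ones were Rb1, E2f1, Ccne1, Ccne2, Cdk2, Skp2, Cdkn1c, Cdkn2d, Mki67, Top2a, Mdm2, Ezh2, Mtap and Trp53, the last without a probe set of its own. Of proliferation markers only Mki67 and Top2a were named. Other neighbours were named for position or for single tumours, and Tbx3 for its spread. The members and lists were chosen with earlier results of these data known. Lists were not tested as sets. Tested on simulated data for HCC against normal liver (45037 probe sets), the fit found 0, 15, 41 and 48 of 50 probe sets changed by 0.5, 1, 2 and 4 and called 6 unchanged ones. Far fewer probe sets were changed there than the 3751 that passed in the data. The Benjamini-Hochberg cutoff was therefore stricter in the simulation, and these counts may understate what the test finds here. Replicate numbers 1 to 6 occur in both groups; deviations of arrays that share a number correlated by -0.0177 to 0.0636, and they were not taken as pairs. Alternatives were other pseudocounts, scalings, filters, gene summaries, variance models, array weights, a replicate block, the Y-linked level, and leaving out arrays; the arrays without Y-linked signal alone and the interaction were added after seeing the data. The labels do not say whether arrays of a group come from separate cages or litters. Figures used Python 3.11.15 and matplotlib 3.10.9.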

Additional observations from a re-analysis of the deposited data

Results flagged for a closer look

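Among 52 sets of 6 levels (26 probe sets in HCC and in normal liver), 2 held an animal whose gap to its nearest neighbour was large for the range of its group. Chance gives about 1 in 20, so 2 of 52 is no more than chance would give. Cdkn2b in HCC 4 was at 8.35, with the next tumour at 9.99, a gap of 0.765 of the range of the 6 tumours. Without HCC 4 the Cdkn2b difference was 4.04. The dimmer probe set of Cdkn1a in HCC 5 was at 5.02, with the next tumour at 7.53, a gap of 0.764 of the range.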

How the results depend on the processing

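The rises of Ccnd1 (2 of its 3 probe sets), Cdkn2a, Cdkn2b and Cdkn2c passed in every alternative run that tested them, except the added one of 4 arrays without Y-linked signal, where limma called none of the 26 member probe sets, none of the other G1 genes and 0 genes of each other list. Of the 26, 6 to 9 passed when single arrays were left out. Counted by gene, 5 of 10 passed with the brightest probe set and 4 with the mean of probe sets. The other G1 list counted 3 with a pseudocount of 64, the deposited scaling, the filter on dim probe sets or a trended and robust variance, 2 with gene means, and 1 to 3 without single arrays. Regulators counted 5 with the deposited scaling and 0 on arrays with Y-linked signal, neighbours 1 on those arrays and 1 with the filter, and proliferation markers 6 on those arrays. With the replicate number as a block 7 of the 9 member calls held (Cdk6 and Ccnd3 each lost 1) and regulators counted 1; the numbers do not pair the animals. On the arrays with Y-linked signal 3.29% of all probe sets passed and 1.81% were higher. The share of all probe sets that passed was not counted in the other alternative runs. There a change in these counts cannot be told apart from a change over the whole array. The cause of these changes was not tested.

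Differences near 0 changed sign. With the deposited scaling Cdkn1b was at 0.079, the dimmest Cdk6 probe set at 0.035, Cdkn2d at 0.12, Rb1 at 0.10 and Mtap at 0.019; with median centring Cdkn1b was at 0.011, Cdkn2d at 0.048 and Rb1 at 0.035. Cdk2 was at -0.093 with gene means and -0.013 with array weights. On arrays with Y-linked signal Cdkn1b was at 0.043 and 0.028, Cdk2 at -0.015, Rb1 at 0.066 and Mtap at 0.29. On arrays without it the brightest Ccnd3 was at -0.14, 4 Ccnd2 probe sets at -0.13, -0.50, -0.35 and -0.52, and the dimmest Cdk6 at 0.39. Without single arrays the ranges that crossed 0 were -0.025 to 0.059 and -0.020 to 0.26 for 2 Ccnd3 probe sets, -0.097 to 0.33 for a dim Ccnd2, -0.15 to 0.080 for Cdkn1b, -0.18 to 0.12 for Cdk6, -0.086 to 0.019 for Cdkn2d, -0.088 to 0.077 for Cdk2, -0.15 to 0.055 for Rb1 and -0.13 to 0.20 for Mtap. Signal over background limits Cdkn2a, with an intensity under 16 in 2 of 6 normal livers, and also 2 probe sets of Ccnd2 and 1 of Ccnd3. The dimmer Cdkn1a probe set came close to 16 in HCC 5 and normal 5, at 17.3 and 17.6.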

Other observations

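For each of the 9 genes whose brightest probe set lay above the median probe set, the 3 other genes with the most similar levels over the 12 arrays were taken from 11390 bright probe sets, by Pearson's r. The 12 arrays share the group difference, so genes that differ between HCC and normal liver are alike for that reason, and no test applies. Cdk6 was most like Nupr1 (r = 0.989), a stress-induced nuclear protein that was 3.15 higher in HCC, Mep1b (0.971) and Srsf6 (0.970). Cdkn2b was most like Bmi1 (0.962), Alkbh6 (0.956) and Cyp4f16 (0.949). Cdkn2c was most like U2surp (0.946), Cpne8 (0.936) and Ctnnd1 (0.931). Ccnd1 was most like Taf1d (0.949), Rasa2 (0.948) and Rpl19 (0.941).

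For the genes that did not pass as a group, the most similar genes were taken in the same way. The highest of 11390 values of r over 12 arrays can be high without any relation. The level reached in that way was not determined. Ccnd2 was most like Marcks (0.966), Septin8 (0.955) and Msn (0.949), which encode proteins at the cell cortex and were 0.41, 0.46 and 0.67 higher in HCC. Cdkn1a was most like Mif (0.947), Zfand2a (0.930) and Ndufa8 (0.928). Cdk4 was most like Aig1 (0.949), Atrx (0.942) and Zfp36l1 (0.925). For Ccnd3 and Cdkn1b the highest values were 0.860 each, with 0610005C13Rik and Gnaq.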
